A study of Drosophila melanogaster with 20 samples.

Results

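The genes described here are 10 factors that repress or clear maternally supplied RNA in Drosophila melanogaster: smg, brat, pum, cup, me31B, tral, twin, png, gnu and plu. They were chosen by name, for their known roles, as 10 of the 17807 genes in the count table. Earlier results of these data were known at that choice, so their shares of calls beside all genes are descriptive only. Their counts were followed over 20 RNA-seq libraries from 5 genotypes. In Ada2b null embryos smg, tral and pum were lower than in both controls, while brat and twin were not called different. The RNA helicase gene me31B was called lower than in both controls in embryos with the Ada2b-PB isoform alone. There the call against WT was near the threshold (edgeR FDR = 0.0492) and was kept in 4 of 8 fits without 1 library. All its libraries also lay below every control in null embryos and in embryos with Ada2b-PA alone, beside 14.0% and 4.93% of genes tested. Neither was called different from the Ada2b-PB embryos. Of the 10 genes, 9 were tested, since cup had 0 counts in every library.

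The study compared embryos that lacked or retained particular forms of Ada2b, a subunit of the Gcn5 histone acetyltransferase complexes, to ask which complexes embryonic gene expression needs. Ada2b null embryos carried the null alleles Ada2b1 and Ada2b842, each on a chromosome 3 marked with either elav-Gal4 or UAS-10XGFP, so that embryos with both alleles were picked by hand for GFP. PA embryos were null embryos with a transgene for Ada2b-PA, the isoform of the CHAT complex, and PB embryos were null embryos with a transgene for Ada2b-PB, the isoform of SAGA and ADA. PA+PB embryos were null embryos with both transgenes. WT embryos expressed GFP from elav-Gal4 and carried neither of these Ada2b null alleles. All genotypes therefore carried the neuronal elav-Gal4 driver and GFP, and each transgene was a single copy under Ada2b genomic regulatory sequences. Each of the 4 replicates per genotype was a pool of whole embryos of stages 12 to 14, except that replicate 3 of WT was labelled as stages 12 to 15. WT and PA+PB were the controls, 8 libraries in all, and every comparison of null, PA and PB used them again.

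An egg is loaded with RNA by the mother, held silent or stable by RNA-binding proteins, and the early embryo later destroys much of it while its own genes switch on. Smaug, Pumilio and Brat bind sequence or hairpin elements in target RNAs, the Cup, Me31B and Trailer hitch proteins form a repressive complex around such RNAs, and the CCR4-NOT deadenylase with its Twin subunit removes their poly(A) tails. The Pan Gu kinase, with its partners Giant nuclei and Plutonium, is switched on at egg activation and sets off the translation of smg and the loss of the Cup, Me31B and Trailer hitch proteins. Several of these genes also act later, as pum and brat do in the nervous system.

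Of these genes, smg lies at chromosome 3L, 8990317 to 8997989 on the minus strand (BDGP6, the dm6 assembly). The gene brat lies at 2L, 19133816 to 19179758 (plus), pum at 3R, 9066343 to 9237682 (minus), me31B at 2L, 10239341 to 10242172 (plus) and tral at 3L, 12515059 to 12520954 (plus). The position of twin is 3R, 24196893 to 24221965 (minus), that of png X, 1356488 to 1357601 (minus), that of gnu 3L, 14802380 to 14803360 (minus) and that of plu 2R, 20262958 to 20263684 (minus). All counts are of reads in exons, summed over the transcripts of a gene, so no isoform of a member was measured apart.

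The libraries held between 1665636 (PB replicate 1) and 35678749 (WT replicate 1) counts on genes, and the share of listed reads on genes ran from 2.39% to 32.2%. Counting error was therefore larger in PA, with at most 10772137 counts, and in PB replicates 1 to 3, with at most 5850673, than in WT. Genes with a count ranged from 4739 in PB replicate 1 to 12126 in WT replicate 1 and did not follow depth alone. PA replicate 4 had 7064 such genes at 8258635 counts, whereas PA+PB replicate 1 had 9728 at 4828612. PB replicate 4 stood apart from the other PB libraries, with 27.3% of reads on genes against 2.53% to 5.96%. Ada2b itself was 39.1 ± 8.19 CPM (SD, n = 4) in null and 108.7 to 174.6 CPM in the WT libraries, where CPM is the count scaled to the TMM-adjusted library size. With the transgenes it was 185.2 to 248.1 CPM in PA, 105.8 to 191.6 in PB and 201.9 to 367.8 in PA+PB. Every PA and PA+PB library thus held more Ada2b RNA than every WT library. Markers of follicle cells and eggshell, 10 genes, summed to at most 79.6 CPM in any library. In these bulk samples, fewer cells of a type and less RNA per cell cannot be told apart, nor can RNA left from the mother and RNA made by the embryo.

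Per kilobase of exon, the members of the controls fell into tiers. In WT the highest were tral with 730.4 CPM per kb (range 491.7 to 883.2, n = 4), smg with 564.9 (352.5 to 668.8) and me31B with 498.1 (364.4 to 613.2), and these ranges overlapped. A lower tier held brat with 82.4 CPM per kb (67.1 to 102.6), pum with 66.6 (56.4 to 75.7) and plu with 49.5 (26.5 to 74), which also overlapped. Below it came twin with 21.6 CPM per kb (16.2 to 33.1), overlapping only plu of that tier, and then gnu with 3.30 (2.90 to 3.77) and png with 1.29 (0.873 to 1.89). In null, smg moved from rank 2 of the 10 genes to rank 5, at 26.9 CPM per kb (24.7 to 29.8), a range that overlapped those of twin (25.7 to 34.2) and pum (20.5 to 29). These lengths join the exons of all transcripts, which understates genes with long unused exons.

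**Figure D1:**
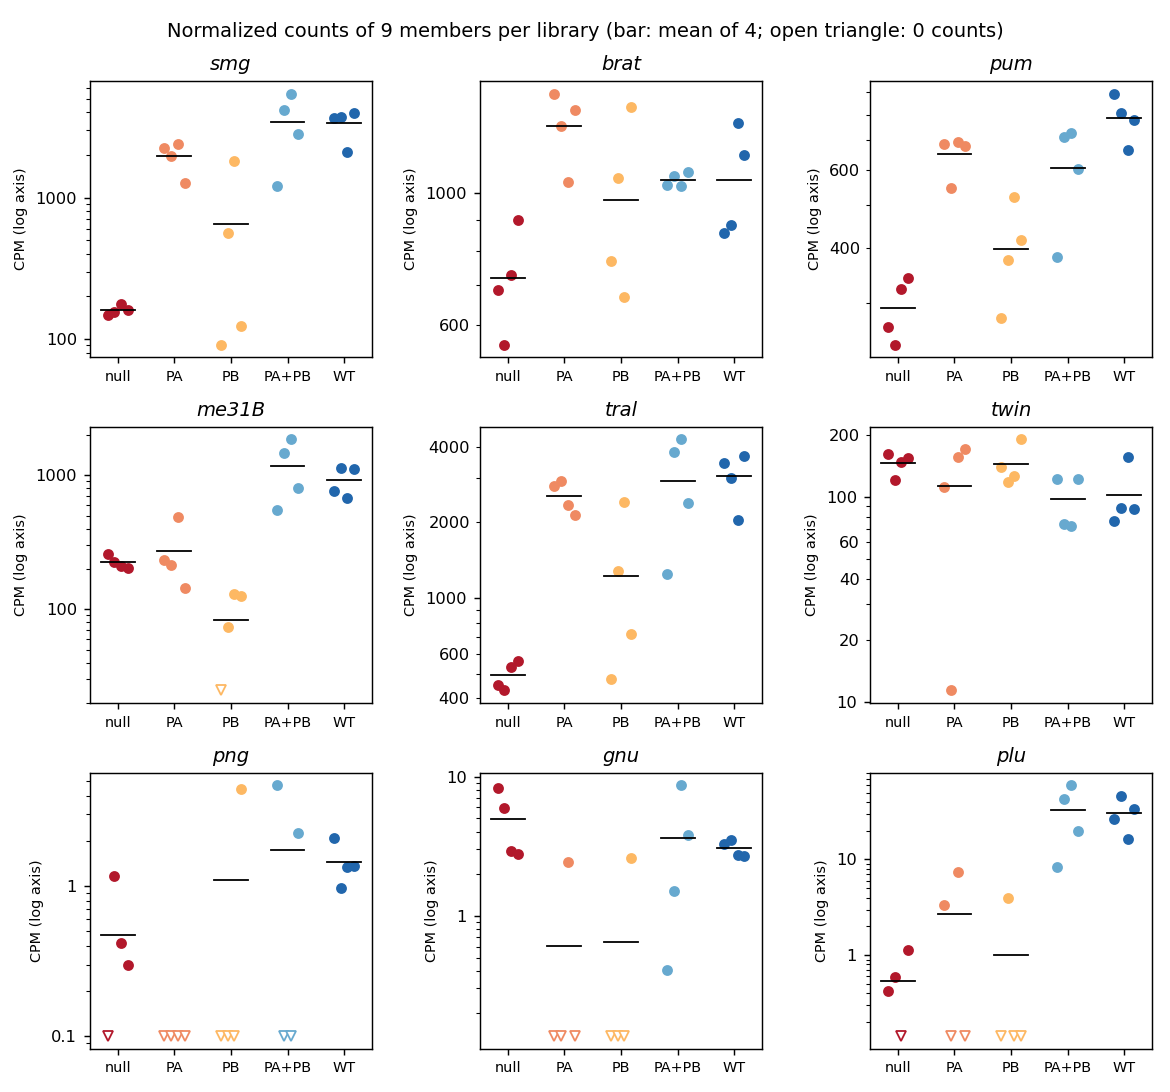
CPM of the 9 members with counts (vertical log axis) in each of the 20 libraries, grouped by genotype, with a bar at the mean of 4 and open triangles for libraries with 0 counts, drawn at an arbitrary low position. The null libraries of smg lie between 147.2 and 177.5 CPM and those of WT between 2102 and 3988. For brat and twin, null and WT overlap.

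The comparison of null embryos with the controls asks what the loss of every Ada2b isoform did to these RNAs. A gene was called where edgeR's quasi-likelihood test gave a Benjamini-Hochberg adjusted p (FDR) under 0.05 over 10904 genes and the log2 fold change was 0.5 or more in size, after removal of 1 unwanted factor that the replicates served to estimate. Against WT, 3 of the 9 members tested were called, beside 4.59% of all genes tested, and all 3 were lower, beside 4.54%. Against PA+PB, 4 were called, beside 3.38%, and all were lower, beside 3.27%. Called against both controls were smg, tral and pum, beside 2.70% of all genes. The median log2 fold change of the members was -2.35 against WT and -2.60 against PA+PB, where the medians over all genes were -0.18 and -0.27.

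The gene smg encodes Smaug, which binds hairpins in target RNAs such as nanos and brings in the deadenylase. Its null libraries held 147.2, 154.9, 177.5 and 161.6 CPM. WT held 3671, 3713, 2102 and 3988 CPM, and PA+PB held 1202, 4194, 5435 and 2829. The null libraries lay close together and far below the lowest control, PA+PB replicate 1. Expressed as a fold, smg was 22.3-fold lower than in WT (log2 fold change -4.48 ± 0.72 SE, edgeR FDR = 0.00332), and the log2 fold change against PA+PB was -4.61 ± 0.77 (edgeR FDR = 0.00485). The null mean was 4.73% of the mean of the 8 controls.

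The gene pum encodes Pumilio, a PUF-family repressor that works with Nanos and Brat on hunchback RNA. Its levels in null were 264.9, 242.2, 324.1 and 342.2 CPM. In WT they were 892.6, 806.6, 665.2 and 777.5 CPM, and in PA+PB 382.7, 713.8, 726.2 and 604.4. Every null library was below every control, with PA+PB replicate 1 nearest to them. The log2 fold change was -1.46 ± 0.26 against WT (edgeR FDR = 0.00407) and -1.13 ± 0.27 against PA+PB (edgeR FDR = 0.0248). The call against PA+PB was lost without any 1 of the 4 null libraries or without PA+PB replicate 2, with an edgeR FDR of 0.105 without null replicate 2. It was also lost with DESeq2 size factors, with no filter (edgeR FDR = 0.219, the highest of 9 alternatives) and with only the groups compared.

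The gene brat encodes Brain tumor, an NHL-domain repressor that also restrains growth of neural stem cell lineages. Null libraries held 687.2, 555.7, 729.2 and 902.6 CPM. WT libraries held 858.6, 882.5, 1311 and 1160 CPM, and PA+PB libraries 1033, 1071, 1030 and 1084. Null replicate 4 lay above the 2 lowest WT libraries, so null overlapped WT, while every null library lay below every PA+PB library. The log2 fold changes, -0.59 ± 0.25 against WT (edgeR FDR = 0.239) and -0.62 ± 0.25 against PA+PB (edgeR FDR = 0.201), missed the threshold. Genes typical of neuroblasts, the dividing neural precursors, summed to 1267 to 1870 CPM in null and 314.2 to 1557 CPM in the 8 controls, with none of the 10 at 0 throughout any genotype, and their part in the level of brat was not tested.

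Trailer hitch, the product of tral, is an LSm-domain scaffold of repressed RNA particles. Its RNA stood at 450.5, 430.1, 530.9 and 564 CPM in null. WT had 3443, 3007, 2051 and 3683 CPM, and PA+PB 1246, 3798, 4271 and 2377. No null library reached the lowest control. The log2 fold change was -2.64 ± 0.43 against WT (edgeR FDR = 0.00332) and -2.60 ± 0.45 against PA+PB (edgeR FDR = 0.0078).

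Me31B, a DEAD-box RNA helicase of the same complex, had 257.4, 225.9, 209.2 and 203.9 CPM of its RNA in null. In WT it had 760.3, 1131, 672.4 and 1112 CPM, and in PA+PB 548.9, 1467, 1854 and 800.6. Again no null library reached a control. The log2 fold change was -3.09 ± 0.85 against PA+PB (edgeR FDR = 0.0495) and -2.35 ± 0.75 against WT, where the edgeR FDR of 0.0878 missed the threshold. The call against PA+PB was lost on leaving out any 1 of 6 libraries, the null libraries and PA+PB replicates 2 and 3, with an edgeR FDR of up to 0.139 without null replicate 2, and under 4 of 9 alternatives, with an edgeR FDR of up to 0.0994.

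The third gene of the complex, cup, encodes an eIF4E-binding protein and lies at 2L, 6663664 to 6674780 on the plus strand. Its count was 0 in all 20 libraries. All 4306 of its exon bases, 100%, are also exon bases of CG34310 on the same strand in the annotation used here, and the counting settings give a read on more than 1 gene to neither. CG34310, with 265 of its 4571 exon bases outside cup, had 0 to 194 counts. The level of cup was thus not measured, and its 0 says nothing of its expression.

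The deadenylase gene twin went the other way in its mean but passed no test. Null libraries held 161.6, 121.6, 148.1 and 155.8 CPM. WT libraries held 76.4, 88.0, 156.5 and 87 CPM, and those of PA+PB 122.4, 73.5, 72.2 and 122.6. Null replicate 2 lay among the controls and WT replicate 3 as high as null, so the groups overlapped. On the log2 scale the fold change was 0.40 ± 0.50 against WT (edgeR FDR = 0.861). Of the twin exons, 454 bases (9.61%) overlap the gene cav on the opposite strand, and the library kit did not mark strand, so reads there cannot be told apart. The level of cav was 12.8 to 33.7 CPM in null and 55.8 to 117.8 CPM in WT.

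The genes of the kinase complex were scarce, and counts are given for them. The gene plu encodes Plutonium, a small ankyrin-repeat protein that activates Pan Gu. Its counts were 10, 13, 0 and 34 in null, 802, 1219, 417 and 935 in WT and 41, 514, 489 and 274 in PA+PB. As levels these were 0 to 1.13 CPM in null and 8.35 to 59.7 CPM in the controls, so no null library came near a control. The mean in null was 1.70% of the control mean, yet plu was not called, with an edgeR FDR of 0.0806 against WT and 0.082 against PA+PB and log2 fold changes of -6.29 ± 1.99 and -7.12 ± 2.22.

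The gene png encodes the Pan Gu kinase itself. It had 0, 26, 8 and 9 counts in null, 63, 26, 34 and 38 in WT and 23, 0, 0 and 31 in PA+PB. The mean was 0.47 CPM in null and 1.44 CPM in WT. Against WT the log2 fold change was -4.17 ± 1.81 (edgeR FDR = 0.285), and over 9 alternatives it ran from -4.75 to -1.59. Against PA+PB, where 2 libraries had 0, it was -3.31 ± 1.67 (edgeR FDR = 0.329). Neither was called at these low counts. The gene gnu, for the activator Giant nuclei, had 194, 131, 56 and 83 counts in null, 98, 93, 70 and 75 in WT and 2, 18, 71 and 53 in PA+PB. Unlike plu, it was present in every null library at 2.77 to 8.28 CPM, a range that held all WT values but the lowest 2.

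Non-overlap of CPM with the controls needs no test, but it rests on the TMM scaling of the libraries. In null, 5 members (smg, pum, me31B, tral and plu) had every library below all 8 controls, beside 14.0% of the genes tested. The ratio of counts within a library needs no scaling between libraries. For each count of brat, null libraries held 0.179 to 0.279 counts of smg, compared with a range of 1.60 to 4.28 for WT and 1.16 to 5.27 for PA+PB. For each count of tral they held 0.287 to 0.360 counts of smg, against 0.965 to 1.27 in the controls, so smg was low even against tral. The ratio of pum to brat was 0.379 to 0.444 in null and 0.371 to 1.04 in the controls and overlapped. The ratio of twin to brat was 0.173 to 0.235 in null and at most 0.119 in the controls. Both genes enter this ratio. In null the mean of brat was 68.2% and that of twin 147% of the control mean, and neither was called. The share of other gene pairs without overlap was not computed.

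**Figure D2:**
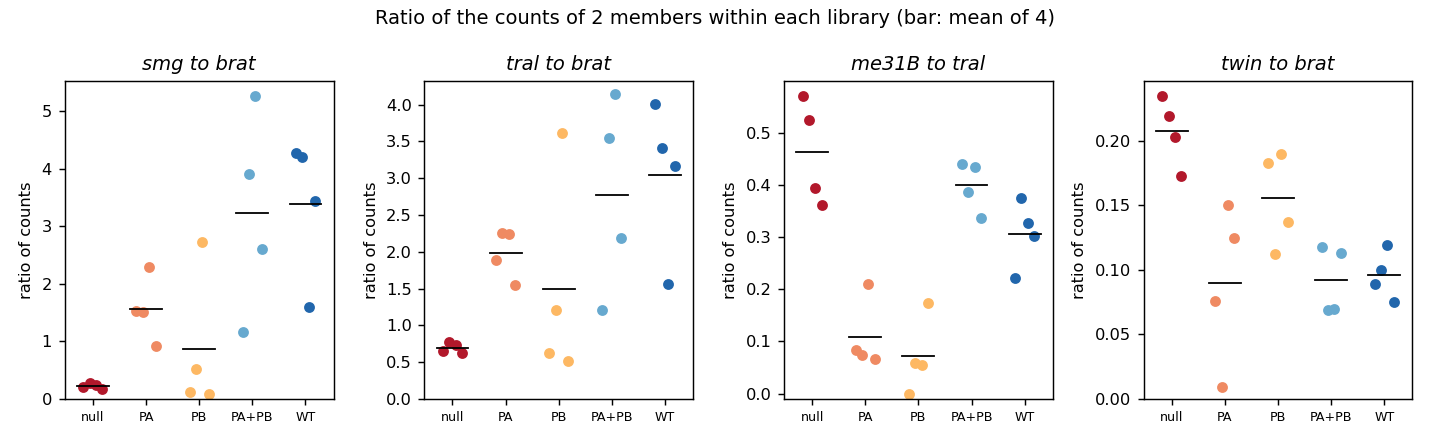
Ratio of the counts of 2 members within each library (vertical axis, linear) for 4 pairs, grouped by genotype, with a bar at the mean of 4 libraries. The mean ratio of smg to brat is lowest in null, although 2 PB libraries lie below every null library, and the ratio of me31B to tral lies between 0 and 0.210 in PA and PB and between 0.221 and 0.571 in the other libraries.

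PA embryos, which have CHAT but not SAGA or ADA, tested what the Ada2b-PA isoform alone allowed. None of the 9 members was called against WT, where 0.110% of all genes were called, or against PA+PB, where 0.532% were, with 2 members at an unadjusted p under 0.05 against PA+PB in the edgeR test, beside 20.5% of all genes. Over both controls together the background was 0.0917% of all genes. The levels of smg were 2243, 1952, 2394 and 1266 CPM, of which 2 exceeded WT replicate 3 and all exceeded PA+PB replicate 1. The levels of tral were 2784, 2919, 2339 and 2143 CPM and those of pum 686.4, 546.7, 693.1 and 680.9, both within the control range. Means in PA as a share of the control mean were 57.9% for smg, 85.3% for tral and 93.6% for pum. Against null, smg (log2 fold change in null -3.90 ± 0.81, edgeR FDR = 0.0183), tral (-2.42 ± 0.51, edgeR FDR = 0.0183) and pum (-1.30 ± 0.30, edgeR FDR = 0.0281) were called, beside 2.14% of all genes. All 3 of these calls were lost without any 1 null library or without PA replicate 1, and with DESeq2 size factors (edgeR FDR = 0.0515 for smg).

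The gene me31B did not follow smg and tral in PA embryos. It had 233.4, 213.3, 490.5 and 143.4 CPM, every library below every control, and a mean of 25.9% of the control mean. The fitted log2 fold change was -1.15 ± 0.85 against WT (edgeR FDR = 0.518) and -1.89 ± 0.74 against PA+PB (edgeR FDR = 0.164), so this was no call. Leaving out 1 library gave -2.165 to -0.67 against PA+PB, with an edgeR FDR of up to 0.752 without PA+PB replicate 3. With only the 16 libraries of at least 5000000 counts, a choice made after seeing the data that dropped PA replicate 2, PB replicates 1 and 3 and PA+PB replicate 1, me31B was called in PA against both controls (log2 fold change -2.19 against PA+PB). The ratio of me31B to tral within a library was 0.0669 to 0.210 in PA, 0.362 to 0.571 in null and 0.221 to 0.441 in the controls, so PA lay below both. Together with plu, with 20, 0, 76 and 0 counts, me31B was 1 of 2 members with all PA libraries below all controls, beside 4.93% of all genes.

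PB embryos, which have SAGA and ADA but not CHAT, showed the lowest me31B. The 4 libraries held 0, 74.3, 130.1 and 126.1 CPM, all below every control. They were also below every null library, a difference that was not called (edgeR FDR = 0.636). PB replicate 1, with the fewest counts of all libraries, had 0 counts, which at the upper limit of 3 counts is 1.40 CPM or at least 748-fold lower than the control mean. That limit covers counting error only. In this library 75.6% of reads were not aligned and 4739 genes had a count, the fewest of all, so its 0 is weak evidence of absence. The log2 fold change was -3.27 ± 0.77 against WT (edgeR FDR = 0.0492) and -4.02 ± 0.80 against PA+PB (edgeR FDR = 0.00822). It was the only member called against both controls, beside 0.752% of all genes. The call against WT was lost without PB replicate 2 or without WT replicate 2, 3 or 4, with an edgeR FDR of up to 0.162 without WT replicate 4. It was also lost, and with it the call against both controls, when the fit held a block for replicate number. Both calls were lost when the fit held only the 2 groups compared (edgeR FDR = 0.319 against WT and 0.269 against PA+PB).

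Levels of smg in the PB libraries lay far apart, with 91.2, 558.4, 1816 and 122.6 CPM. Replicate 3 lay within the range of the controls, while replicates 1 and 4 lay below every null library. Against PA+PB the log2 fold change was -2.39 ± 0.65 (edgeR FDR = 0.0369), and -2.26 ± 0.68 against WT missed the threshold (edgeR FDR = 0.0981). The call against PA+PB was lost without PB replicate 2 or without PA+PB replicate 2 or 3, with an edgeR FDR of up to 0.189, and with only the groups compared. In all, 1 member was called against WT, beside 0.835% of genes, and 2 against PA+PB, beside 6.59%.

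In the other members of PB embryos no call was made against either control. For tral the levels were 476.8, 1283, 2412 and 723.2 CPM and for pum 278.2, 376.3, 522.5 and 418.1, both highest in replicate 3, and neither was called (edgeR FDR = 0.0617 and 0.151 against PA+PB). For brat they were 768.5, 1059, 668.6 and 1398 CPM, and for twin 140.5, 118.6, 127.3 and 191. The only PB library with counts of plu was replicate 2, with 22. Replicate 4, the library that stood apart in depth, was the only PB library with counts of png, 134, and gnu, 79. Below all 8 controls in every PB library were me31B and plu, beside 8.62% of all genes.

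**Figure D3:**
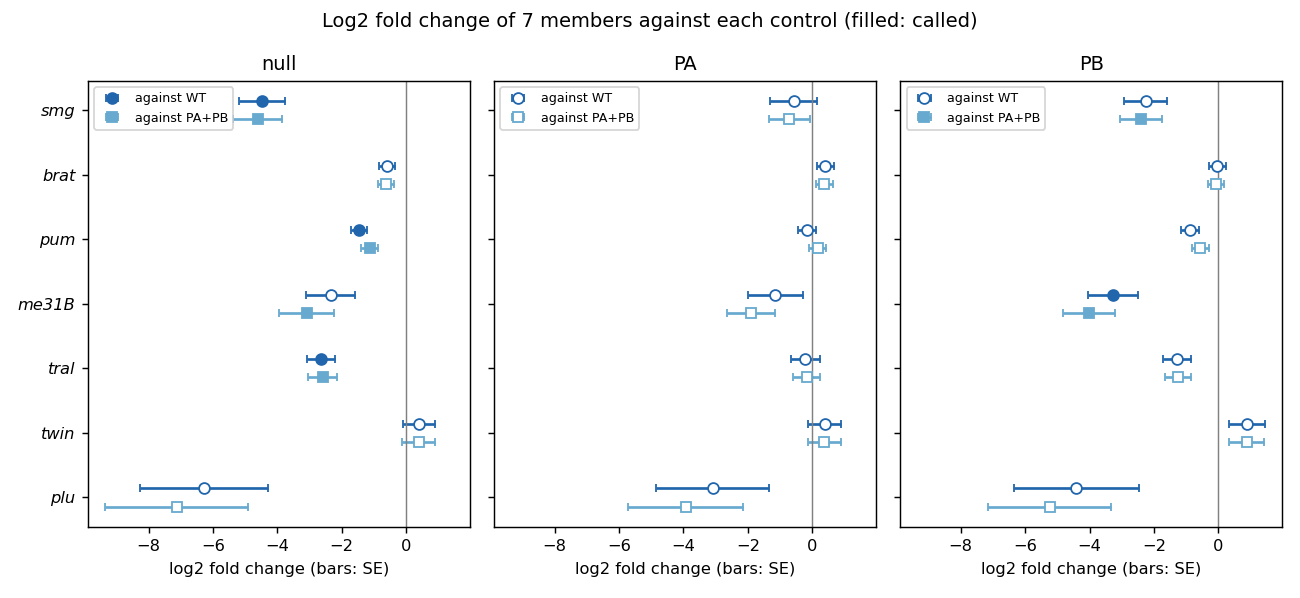
Log2 fold change (horizontal axis, bars of 1 SE) of 7 members in null, PA and PB against WT (circles) and PA+PB (squares), with called genes filled. In null smg, pum and tral are filled for both controls, in PB me31B is, and in PA no point is.

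In the direct comparison of PA with PB no member was called, beside 0.00917% of all genes, with 4 members at an unadjusted p under 0.05, beside 21.4%. Of these, pum (log2 fold change in PA over PB 0.72 ± 0.25, edgeR FDR = 0.15) and me31B (2.13 ± 0.78, edgeR FDR = 0.16) missed the threshold. Between null and PB also no member was called, beside 0.138% of all genes, with 3 at an unadjusted p under 0.05, beside 13.5%. Of the comparisons among null, PA and PB, only that of null with PA thus gave calls, for smg, tral and pum. Between the controls, no member was called and none had an unadjusted p under 0.05, beside 0.0183% of all genes, and the log2 fold change of WT over PA+PB was -0.13 ± 0.65 for smg and 0.04 ± 0.41 for tral.

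Within the controls the same libraries were low for several members. PA+PB replicate 1 was the lowest PA+PB library for smg, pum, me31B, tral and plu. WT replicate 3, the library labelled with the longer stage range, was the lowest of WT for the same 5 genes and the highest for brat and twin. The part of stage in these values was not tested. Over the 20 libraries, the Pearson correlation of log2 CPM between smg and tral was 0.975 and that between pum and tral 0.944, whereas me31B correlated at most at 0.639, with smg. These points share library, depth and genotype. The gene most like smg by this measure was TMEM216 (r = 0.989), that most like tral was Tlk (0.986), that most like pum IntS6 (0.964), that most like me31B CG1344 (0.992), that most like twin snz (0.974) and that most like brat fs(1)h (0.847).

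The wider pathway was followed in 5 lists with 61 genes, also chosen with earlier results of these data known. They are read here beside the share of all genes tested that was called lower in null against both controls, 2.70%. No gene of these lists, and none of all 10904 genes, was called higher in null against both. Among 15 tested partners in repression, 2 fell against both, beside that 2.70%: BicD, for a dynein adaptor, with 52.3 to 69 CPM in null and at least 109.4 in the controls (log2 fold change -1.90 ± 0.43 against WT, edgeR FDR = 0.0139), and AGO1, the miRNA Argonaute (-0.99 ± 0.28, edgeR FDR = 0.0421). The RNA-binding protein gene glo was called against WT only (-1.25 ± 0.35, edgeR FDR = 0.0447), a call lost when any 1 library of null or WT other than WT replicate 1 was left out and in 5 of 9 alternatives, with an edgeR FDR of up to 0.634. In PB, yps, for a Y-box protein of RNA particles, rose against PA+PB (1.38 ± 0.31, edgeR FDR = 0.0157) while Hrb27C, for an hnRNP, fell (-0.74 ± 0.22, edgeR FDR = 0.0467). The call of yps was lost without PB replicate 2 or PA+PB replicate 2 or 3, and that of Hrb27C without any of these, without PB replicate 1 or 3 and in 5 of 9 alternatives, with an edgeR FDR of up to 0.404. When each of 12 null and control libraries was left out in turn, BicD kept its call against both controls in 5 and AGO1 in 2. The fall of AGO1 was not confined to null. PB embryos also had a call of lower AGO1 against PA+PB (-0.98 ± 0.27, edgeR FDR = 0.0397) but not against WT (edgeR FDR = 0.12). That call was lost without PB replicate 2 or PA+PB replicate 2 or 3, and was kept in 5 of 9 alternatives. The mean of AGO1 was 431.7 CPM for PB, beside 523.7 for null and 508.7 for PA, which gave no call.

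Of the 12 genes for CCR4-NOT and PAN, the complexes that shorten poly(A) tails, PAN3 alone fell in null against both controls, 1 of 12 beside 2.70% of all genes (-1.35 ± 0.31 against WT, edgeR FDR = 0.015). Not1, the scaffold to which Twin binds through Pop2, had 564.8 to 772.3 CPM in null and at least 929.2 in the controls. It was called against WT (-1.29 ± 0.25, edgeR FDR = 0.00643), as was Cnot4 (-0.98 ± 0.27, edgeR FDR = 0.0376), and neither was called against PA+PB. Not1 kept its call without any 1 library, whereas Cnot4 lost it in all 8 such fits, with an edgeR FDR of 0.0591 to 0.147. The gene cu, for Curled, the fly Nocturnin, rose in PB against PA+PB (3.99 ± 1.15, edgeR FDR = 0.0446), a call kept only without PB replicate 1 or PA+PB replicate 1 and in 3 of 9 alternatives. Over the 9 alternatives its log2 fold change ran from 1.43 to 4.68 (edgeR FDR up to 0.626). PAN3 kept its call against both controls in 5 of the 12 leave-one-out fits, and was lost without any null library. PB embryos also had a call of lower PAN3 against PA+PB (-1.064 ± 0.305, edgeR FDR = 0.0441) but not against WT (edgeR FDR = 0.0987). That call was kept in 3 of 8 fits without 1 library and in 4 of 9 alternatives. The mean of PAN3 was 369.3 CPM for PB, beside 360.6 for null and 388.6 for PA, which gave no call. The median of the list in null was -0.27 against WT and -0.15 against PA+PB.

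Among 13 genes for decapping and decay, 3 fell in null against both controls, beside 2.70% of all genes. These were Edc3, an enhancer of decapping (-1.98 ± 0.48 against WT, edgeR FDR = 0.0192), the exonuclease gene Rat1 (-1.19 ± 0.28, edgeR FDR = 0.0153) and Tailor, a terminal uridylyltransferase (-2.40 ± 0.50, edgeR FDR = 0.00831). Ge-1 and Patr-1, for partners of the decapping enzyme, were called against WT (-1.46 ± 0.34 and -1.72 ± 0.36, edgeR FDR = 0.0171 and 0.00841) but not against PA+PB. Ge-1 lost its call when any 1 null library or WT replicate 4 was left out. Tailor kept its call against both controls in all 12 leave-one-out fits and all 8 alternatives, whereas Edc3 kept it in 6 and Rat1 in 2 of the 12. The medians of this list were -0.85 and -0.66.

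The proteins of this pathway are themselves destroyed through ubiquitin ligases, and of 8 tested genes for this step 3 fell in null against both controls, beside 2.70% of all genes. Among them were Cul1, the cullin of the SCF ligase that removes Smaug (-1.47 ± 0.29 against WT, edgeR FDR = 0.00653), and muskelin, for a subunit of the CTLH ligase that removes the Cup, Me31B and Trailer hitch proteins. The level of muskelin was 17.2 to 24.8 CPM in null and 78.4 to 297.8 CPM in the controls (-3.71 ± 0.90 against WT, edgeR FDR = 0.0204). In the 12 leave-one-out fits the call against both controls was kept in 4 for muskelin and in 2 for Cul1. In PB the SCF adaptor gene SkpA fell against both controls (-1.67 ± 0.39 against WT, edgeR FDR = 0.0433), and RanBPM, for another CTLH subunit, rose against PA+PB (1.76 ± 0.49, edgeR FDR = 0.0397), which was lost without PB replicate 2 or 4 or PA+PB replicate 2 or 3. SkpA kept its call in 7 of the 12 such fits for PB, lost without PB replicate 2, PA+PB replicate 2 or 4, or WT replicate 2 or 4.

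Last, 12 RNAs known as targets of these factors were examined. In null, bcd, CycB and twe, 3 of the 12, fell against both controls, beside 2.70% of all genes. The level of bcd, which encodes the anterior morphogen Bicoid, was 5.46 to 8.17 CPM in null and 34.2 to 369.4 CPM in the controls (-5.57 ± 1.14 against WT, edgeR FDR = 0.00774). That of twe, for the Cdc25 phosphatase Twine, was 2.50 to 9.73 CPM and at least 115.5 CPM (-5.68 ± 1.22, edgeR FDR = 0.00984), and CycB, for Cyclin B, had 347.2 to 513.3 and at least 1046 CPM (-2.56 ± 0.50, edgeR FDR = 0.00643). In PB, Hsp83, a classic RNA target of Smaug, was higher than in WT (3.45 ± 0.57, edgeR FDR = 0.00548) and PA+PB (3.24 ± 0.57, edgeR FDR = 0.00342), while CycB and CycA fell against PA+PB (-1.59 ± 0.47 and -1.27 ± 0.36, edgeR FDR = 0.0481 and 0.0433). The call of CycB in PB was lost without PB replicate 2 or 4 or PA+PB replicate 2, 3 or 4, and that of CycA without PB replicate 1 or 2 or PA+PB replicate 2 or 3. Hsp83 is also a heat shock gene. In null the calls against both controls were kept in 10 of 12 leave-one-out fits for CycB and twe, lost without null replicate 2 or 3, and in 7 for bcd, lost without any null library or PA+PB replicate 2. Hsp83 kept its call in PB in all 12, but lost it when the fit held only the groups compared (edgeR FDR = 0.259 against WT and 0.269 against PA+PB). In PA, no gene of the 5 lists was called against both controls.

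**Figure D4:**
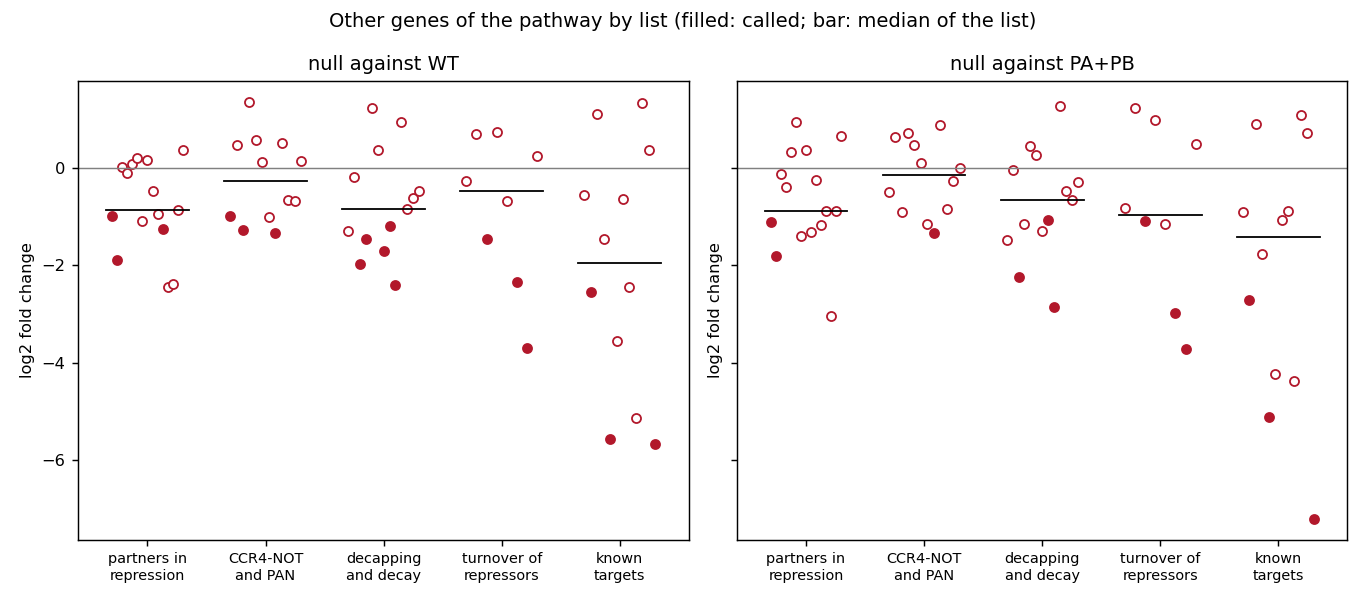
Log2 fold change in null (vertical axis) against WT (left) and PA+PB (right) for the tested genes of 5 lists, each point a gene, filled where called, with a bar at the median of the list. Every filled point lies below 0, and bcd and twe lie lowest.

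Marker lists were set beside these values as a check of stage and cell type. Genes of the early, cellularizing embryo summed to 209.5 to 289.7 CPM in null and 205.3 to 392.6 CPM in the controls, with nullo and Sry-alpha at 0 in every null and WT library. Those of late, cuticle-forming embryos summed to 475.3 to 750.3 CPM in null and 68.1 to 5877 CPM in the controls, the highest in WT replicate 1. Germ cell markers, of which 7 were in the table, summed to 475 to 560.3 CPM in null and 259 to 566.3 CPM in the controls. Neuron markers summed to 1214 to 1472 CPM in null, 788.5 to 2070 in PB and 467.3 to 1414 in the controls. Neuroblast markers summed to 653.1 to 3407 CPM in PB, 1428 to 2673 in PA and 314.2 to 1557 in the controls. Of the 10 neuroblast markers in PA, 5 had an unadjusted edgeR p under 0.05 against WT, beside 14.6% of all genes. Against PA+PB 6 did, beside 20.5%, and none was called in PA. The summed levels of null overlapped those of the controls in each of these lists, although the mean of the neuroblast list was higher in null, 1688 CPM against 857.4 in PA+PB and 923.7 in WT. Single markers also differed. The germ cell marker bam and the early embryo marker slam were called lower in null against WT (log2 fold change -4.39 ± 1.13 and -5.03 ± 1.12, edgeR FDR = 0.029 and 0.0128) and against PA+PB, and the neuron marker Csp was called lower against WT (-1.32 ± 0.32, edgeR FDR = 0.0191). In PB the neuroblast marker grh was called higher against PA+PB (1.975 ± 0.558, edgeR FDR = 0.0418). The part of stage and cell type in the members' levels was not tested.

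**Figure D5:**
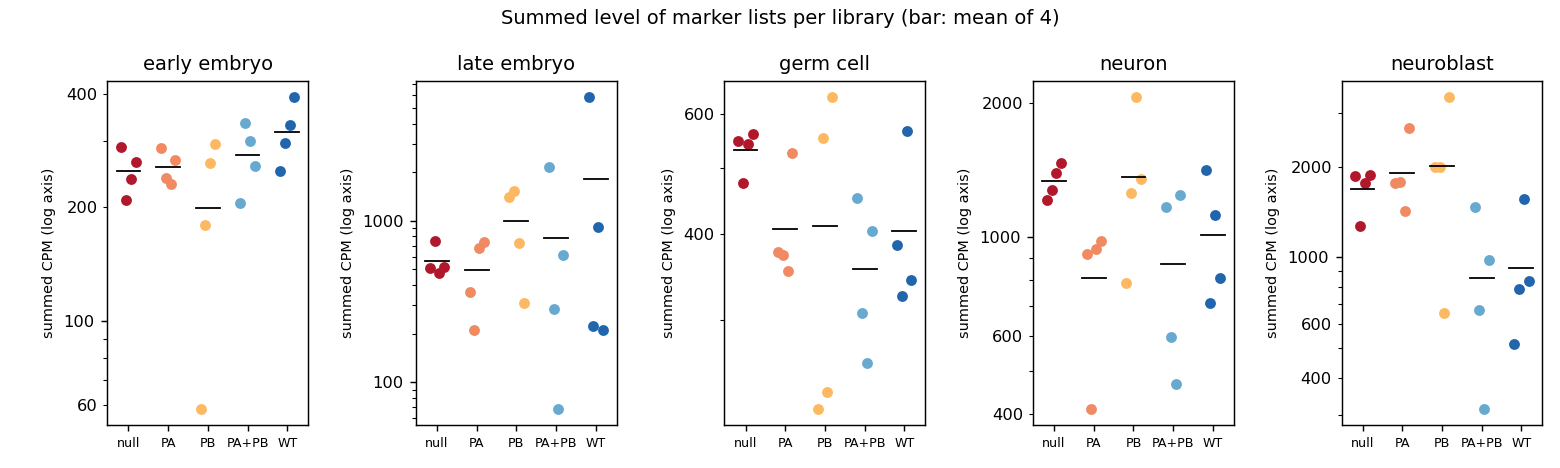
Summed CPM of 5 marker lists (vertical log axes) in each of the 20 libraries, grouped by genotype, with a bar at the mean of 4. Null libraries overlap the 8 controls in every list, and the neuroblast list spreads widest in PB, from 653.1 to 3407 CPM.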

How the data were processed

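RNA was extracted from pools of hand-picked embryos and made into libraries with the Ovation RNA-seq System V2 (NuGEN), with ribosomal RNA depletion, and the counts were deposited by the authors as 1 table of whole-number, unnormalized counts per gene. Per the labels and the methods, reads were trimmed with Trimmomatic, aligned to BDGP6 (dm6) with HISAT2 and counted with HTSeq 0.11.1 under default parameters. The header of the table has 1 empty cell more than its rows, so columns were matched to names in order. The table held 17807 gene identifiers, of which 17710 were named from the Ensembl release 115 annotation of the same assembly, 5 summary rows and 2 transgene rows. Summary rows were left out of library sizes, as were 138 genes for rRNA.

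Low counts were filtered with filterByExpr and libraries scaled by TMM, and 10904 were tested with edgeR 4.0.16 (R 4.3.3) by the quasi-likelihood test, with all 20 libraries in 1 fit and 1 unwanted factor (RUVs) that the replicates served to estimate. The number of factors is not given in the sources used here. Calls needed an FDR under 0.05 with the log2 fold change 0.5 or more in size. Fold changes are after removal of that factor and can differ from ratios of mean CPM. Values of the factor ran from -0.85 to -0.81 in null, from -0.78 to -0.12 in WT and up to 2.95 in PB replicate 1. SEs were taken as the fold change over the root of the F statistic. Limits for counts of 0 use 3 counts and cover counting error only. Replicates are separate pools of embryos. The p-values measure the spread between pools that was left after removal of the factor, which was itself estimated from differences between pools of a genotype. That spread was estimated over all 20 libraries together. Scripts were tested on simulated data.

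All 10 members are named. From the 5 pathway lists those called in at least 1 of 10 contrasts are named, at most the 5 with the smallest FDR per list, except 1 gene that is not reported here. Likeness used genes with at least 10 counts in 16 libraries. The members and lists were chosen with earlier results of these data known. Alternatives were DESeq2 1.42.0 size factors and its Wald test, no filter, 0 or 2 factors, a replicate block, only the groups compared, no limit on fold change, plain library totals for CPM and each library left out in turn. With no limit on fold change the main fit is kept, so that setting can lose no call. No sequences of the members were used here.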

Additional observations from a re-analysis of the deposited data

Results flagged for a closer look

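In 44 sets of 4 libraries (a member in a genotype), 7 had a library farther from the others than Dixon's limit allows. A set with counts in only 1 library exceeds this limit by construction, so the 7 are not set against a chance rate. WT replicate 3 held 2102 CPM of smg against 3671 to 3988 in the other WT libraries, and 156.5 CPM of twin against 76.4 to 88.0. PA replicate 2, the PA library with the fewest counts, held 546.7 CPM of pum against 680.9 to 693.1. In the remaining 4 sets a single library had counts and the others had 0: png in PB replicate 4 (4.40 CPM), gnu in PA replicate 3 (2.42 CPM) and in PB replicate 4 (2.59 CPM), and plu in PB replicate 2 (3.98 CPM).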

How the results depend on the processing

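In null, smg and tral were called against both controls under all 9 alternatives of each comparison and without any 1 library. The same held for pum against WT, while pum against PA+PB was called in 6 of 9. The 9 include no limit on fold change, which keeps the main fit and so could not lose a call. Counts of members called changed as follows, set where available beside the genes called among all genes tested under that setting. The cause was not tested. Against WT, null had 5 with only the groups compared, beside 3979 of 10862 genes. Against PA+PB it had 2 with DESeq2 size factors, beside 232 of 10904, and 2 with no filter, beside 72 of 15168. PB against WT had 4 with 2 factors, beside 485 of 10904 genes, and 3 with the DESeq2 Wald test, beside 1206 of 10904. It had 4 with only libraries of at least 5000000 counts, beside 622 of 12363, and 0 with only the groups compared, beside 6 of 9508. PB against PA+PB had 4 with the Wald test, beside 2379 of 10904, and 0 with only the groups compared, beside 3 of 8541. PB against both controls had 3 with 2 factors, 2 with the Wald test, 3 with the deeper libraries, 3 with the 8 controls pooled and 0 with only the groups compared. PA had 1, me31B, against WT, PA+PB and both with the deeper libraries, beside 196 of 12363 genes against WT and 673 of 12363 against PA+PB. PA against PB had 1 with 2 factors, beside 26 of 10904 genes. Null against PA had 0 with size factors, beside 29 of 10904, and 1 with no filter, beside 32 of 15168. Null against both controls had 4 with the deeper libraries, pooled controls, the Wald test or only the groups compared, the last without pum. It had 2, smg and tral, with size factors or no filter. For calls against both controls, shares of all genes under these settings were not computed. The choices of deeper libraries and pooled controls, and the use of all alternatives on the other genes of the pathway, were made after seeing the data.

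The 48 calls of other pathway genes were lost in 161 of 384 fits without 1 library and in 100 of 432 under other alternatives, and none reversed. The 432 include the setting with no limit on fold change, under which no call could be lost. Leaving out 1 library gave 2 to 5 members for null against PA+PB, 0 to 4 for null against PA, 0 to 2 for null against PB, 0 to 4 for PB against WT, 1 to 3 for PB against PA+PB, 0 to 3 for PB against both controls and 0 to 1 for PA against PB. The log2 fold change of png in null against PB ran from -4.75 without null replicate 2 to 3.97 without PB replicate 4, the only PB library with png. The median of all genes in null against WT moved from -0.18 to 0.40 without the factor, and from -0.27 to 0.49 against PA+PB.

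Replicate numbers are shared between genotypes, but same-numbered libraries deviated together no more than others (median r 0.00613 over 40 pairs, -0.46 to 0.479, against 0.00354 over 120 pairs), and 4 of 20 libraries correlated best with their own number. With the replicate block, PB had 0 members called against WT, beside 43 of 10904 genes, and 0 against both controls. Null against both kept 3. Depth limits png, gnu and plu, and every member in PB replicate 1.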
